A study of Mus musculus with 160 samples.

Results

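The 10 genes described here belong to inhibitory G-protein signaling and were followed through RNA sequencing of mouse distal colon. They are the 3 *Gpsm* genes, the 3 inhibitory α subunits *Gnai1*, *Gnai2* and *Gnai3*, their chaperone *Ric8a*, and the RGS genes *Rgs1*, *Rgs2* and *Rgs16*. They were chosen by name, and their symbols were found through Ensembl gene identifiers. They are 10 of the 39179 genes counted, and all 10 passed the filter on low counts in every comparison. The question was how the transcripts of these G-protein modulators stand in mice that lack *Gpsm3*, and how they vary over the other lines and mice of the series.

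The colons came from 160 mice of 4 knockout lines with wild-type controls. The *Gpsm3* line held 20 knockout and 20 wild-type males on C57BL6/J. The *Dock2* line held 18 knockout and 24 wild-type mice and the *Nckap1l* line 16 and 15, both on C57BL6/J and of both sexes. The *Dok3* line held 26 knockout and 21 wild-type males, and its strain label reads 129. Each line was used in a model of colitis in which dextran sodium sulfate (DSS), a polymer that injures the epithelium, is added to drinking water for 5 days. The labels give DSS at 3% for the *Gpsm3* and *Dock2* lines and 3.5% for the *Dok3* line, and no dose for the *Nckap1l* line. Water followed for 5 days, or 7 days in the *Nckap1l* line, and tissue was taken on day 10, or day 12 in the *Nckap1l* line. The labels do not tell which mice drank DSS, so treated and untreated mice stand together in every group. Knockouts were existing models that had been re-derived and bred as heterozygotes, with wild-type littermates as controls. The mice were young adults by the study's methods, and the structure of the deleted allele is not given in the sources used here.

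A heterotrimeric G protein is switched on when its α subunit exchanges GDP for GTP and releases the βγ dimer, and it is switched off when the α subunit hydrolyzes GTP. Inhibitory α subunits lower cyclic AMP and transmit chemokine signals in leukocytes, and RGS proteins speed up their hydrolysis of GTP. Gpsm proteins carry GoLoco motifs, short stretches that hold an inhibitory α subunit in its GDP-bound form apart from βγ, and *Gpsm3* is best known from blood cells.

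In the GRCm38 annotation *Gpsm3* lies at chr17:34589806-34591754 on the + strand, *Gpsm1* at chr2:26315515-26348237 on the + strand and *Gpsm2* at chr3:108678638-108722309 on the - strand. The inhibitory α subunits lie at chr5:18265135-18360355 (*Gnai1*), chr9:107614125-107635367 (*Gnai2*) and chr3:108107280-108146146 (*Gnai3*), all on the - strand. *Ric8a* lies at chr7:140856957-140864372 on the + strand. The RGS genes all lie on chromosome 1, with *Rgs1* at chr1:144242296-144249242 and *Rgs2* at chr1:143999338-144004161 on the - strand, and *Rgs16* at chr1:153740349-153745468 on the + strand. *Gpsm3* shares 489 bases at its 3′ end with the neighbor *Pbx2* on the same strand, so strand cannot separate the reads of that overlap. *Gpsm1*, *Gpsm2* and *Ric8a* overlap genes of the opposite strand, and the strand setting of the counting is not given in the sources used here, so reads of those overlaps cannot be assigned with certainty.

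RefSeq promoters of GRCm38.p6 were found for 8 of the 10 members, and *Gnai2* and *Rgs1* had no entry. The 250 bases before the start are shown for *Gpsm3*, the gene that was deleted, and for *Rgs2*, the only other member below an unadjusted p of 0.05 in the *Gpsm3* knockout. The *Gpsm3* stretch is chr17:34589556-34589805 on the + strand and the *Rgs2* stretch chr1:144004150-144004399 on the - strand, both written 5′ to 3′. The capitals mark a match to AGGAAGT, the core bound by PU.1 and other ETS factors of blood cells, in *Gpsm3*, and a match to TGACGT, a cyclic AMP response element core, in *Rgs2*. Both matches are on the reverse strand of these sequences.
Gpsm3: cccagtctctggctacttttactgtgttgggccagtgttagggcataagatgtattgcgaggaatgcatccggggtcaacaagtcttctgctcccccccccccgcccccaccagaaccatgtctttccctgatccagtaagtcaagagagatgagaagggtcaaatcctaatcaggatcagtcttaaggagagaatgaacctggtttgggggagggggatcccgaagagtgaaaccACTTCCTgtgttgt
Rgs2: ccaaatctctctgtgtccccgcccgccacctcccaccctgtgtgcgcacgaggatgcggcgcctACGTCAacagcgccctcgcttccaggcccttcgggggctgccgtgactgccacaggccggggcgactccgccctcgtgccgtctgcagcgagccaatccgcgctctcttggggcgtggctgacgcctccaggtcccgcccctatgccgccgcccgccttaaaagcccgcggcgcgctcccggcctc
The *Gpsm3* match begins 14 bases before the start and the *Rgs2* match 186 bases before it. Both strands were searched, the 2 motifs do not overlap each other, and they were picked after the sequences had been read. AGGAAGT was found in 7.69% of 32851 promoters of the same length and TGACGT in 6.47%. Of the 11 promoter entries of the 8 members, 1 held AGGAAGT and 1 held TGACGT. A match describes these letters only, and binding was not measured.

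Total counts were between 4344988 and 19993833 per library, with a median of 15989625, and levels are given as CPM, the counts of a gene scaled to the same total in every library, after TMM normalization for library composition. At these depths 3 counts corresponded to 0.15 to 0.69 CPM. Markers of colon epithelium and of smooth muscle were high in every group, with lowest list means of 7.41 and 6.79 log2 CPM. Some libraries also held skin transcripts, with list means of up to 10.7 log2 CPM. In 5 libraries of the *Dok3* line labelled male, *Xist* was above the Y-linked *Ddx3y*. Sample numbers ran in blocks, 2 in the *Gpsm3* and *Dok3* lines, 1 in the *Dock2* line and 3 in the *Nckap1l* line. The labels do not say what a block is. The knocked-out gene of the other 3 lines overlapped between genotypes, with knockout medians of 22.5 against 34.2 CPM for *Dock2*, 14.8 against 27.2 CPM for *Nckap1l* and 3.16 against 3.63 CPM for *Dok3*. Knockouts of those lines are therefore named here as they were labelled.

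*Gpsm3* was 2.06 lower on the log2 scale in the *Gpsm3* knockout than in wild type (SE 0.28, adjusted p = 0.0001005 over 17560 genes, edgeR's quasi-likelihood test). The 20 wild-type libraries ran from 0.727 to 7.67 CPM with a median of 3.21 CPM, on 12 to 158 counts. The 20 knockout libraries ran from 0.247 to 3.54 CPM with a median of 0.572 CPM, on 4 to 62 counts. The groups overlapped through 3 libraries. The library labelled knockout replicate 1 held 2.74 CPM (48 counts) and the library labelled knockout replicate 11 held 3.54 CPM (62 counts), both inside the wild-type range, while the library labelled wild type replicate 11 held 0.727 CPM (12 counts), inside the knockout range. The sample numbers of knockout replicate 11 and wild type replicate 11 differ by 1.

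Without those 3 libraries the groups did not overlap. The other 18 knockout libraries held 0.247 to 0.93 CPM (mean 0.53 ± 0.21 SD) and the other 19 wild-type libraries 1.99 to 7.67 CPM (mean 3.52 ± 1.3 SD), and the difference was -2.70 on the log2 scale (SE 0.18, adjusted p = 3.36e-13). The wild-type mean was 4.26 times the knockout mean over all libraries and 6.62 times without the 3. Every knockout library kept at least 4 counts on the gene, and the part of the *Pbx2* overlap in these counts was not tested. Skin transcripts were as high as 8.83 log2 CPM in knockout replicate 11, 9.50 in knockout replicate 19 and 10.3 in wild type replicate 10. With the skin list mean as a covariate the difference in *Gpsm3* was -2.20 (adjusted p = 8.563e-06).

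**Figure D1:**
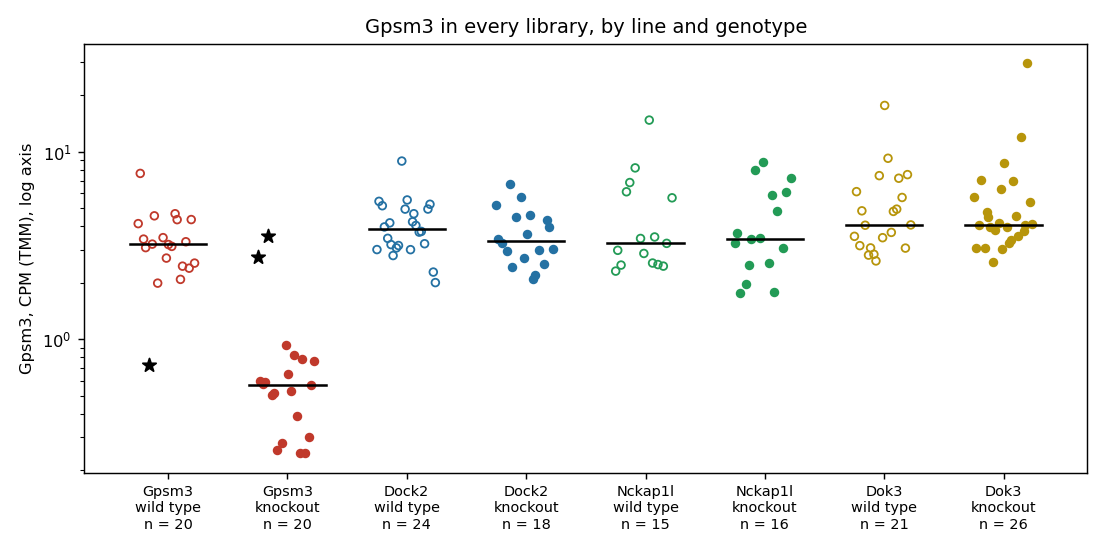
Level of *Gpsm3* in CPM (log axis) in each of the 160 libraries, by line and genotype, with bars at the medians. Stars are on the 3 libraries of the *Gpsm3* line that go against their label. In the *Gpsm3* line, outside the stars, knockout libraries stay at or below 0.93 CPM and wild-type libraries at or above 1.99 CPM.

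*Gpsm3* was the only one of the 10 members called in its own line at an adjusted p of 0.05, and also the only gene called, 0.00569% of those tested. At an unadjusted p of 0.05 the members called were *Gpsm3* and *Rgs2*, against 4.86% of all genes. A member that missed the threshold is given with the interval of its difference, since a missed threshold does not show that the genotypes were alike.

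The other Gpsm genes overlapped between the genotypes. *Gpsm1*, whose protein holds several GoLoco motifs and tetratricopeptide repeats, ran from 7.47 to 19.1 CPM in wild type (median 9.82 CPM) and from 7.36 to 28.2 CPM in knockout (median 10.2 CPM). Its difference was 0.18 on the log2 scale (95% interval -0.11 to 0.46, adjusted p = 0.938), and its highest knockout level was in replicate 11, one of the libraries against their label. The difference was 0.09 without those 3 libraries and 0.06 with the skin list as a covariate. *Gpsm2*, the LGN protein that links inhibitory α subunits to NuMA when the mitotic spindle is oriented, ran from 45.7 to 85.0 CPM in wild type (median 59.3 CPM) and from 40.5 to 84.6 CPM in knockout (median 58.9 CPM). Its difference was -0.02 (95% interval -0.19 to 0.14, adjusted p = 0.998).

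The inhibitory α subunits, the proteins that Gpsm3 binds, overlapped over nearly their whole ranges. *Gnai1*, the subunit that is also common in nerve and muscle, had medians of 26.2 CPM in wild type (11.6 to 64.5 CPM) and 25.7 CPM in knockout (14.3 to 47.4 CPM), a difference of 0.06 on the log2 scale (95% interval -0.25 to 0.38, adjusted p = 0.99). *Gnai2*, the main inhibitory α subunit of leukocytes, had medians of 215 CPM in wild type (186 to 327 CPM) and 223 CPM in knockout (185 to 326 CPM), a difference of 0.08 (95% interval -0.06 to 0.23, adjusted p = 0.941). *Gnai3*, which is expressed in most tissues, had medians of 191 CPM in wild type (166 to 256 CPM) and 202 CPM in knockout (167 to 259 CPM). Its fitted difference was -0.0010 (95% interval -0.12 to 0.12, adjusted p = 0.999). The intervals of *Gnai2* and *Gnai3* reach up to 1.17-fold and 1.09-fold higher in knockout.

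*Ric8a*, which folds newly made α subunits and acts as an exchange factor for them, was the steadiest member. It ran from 53.1 to 67.8 CPM in wild type (median 61.3 CPM) and from 55.9 to 72.9 CPM in knockout (median 61.2 CPM). The difference was 0.01 on the log2 scale (95% interval -0.05 to 0.08, adjusted p = 0.99).

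Among the RGS genes the knockout medians were the higher ones, but none passed the test over all genes. *Rgs2*, which acts mainly on the Gq class of α subunits, ran from 15.6 to 29.6 CPM in wild type (median 20.9 CPM) and from 15.2 to 42.2 CPM in knockout (median 24.6 CPM). The groups overlapped, with the knockout group reaching higher, and the difference was 0.29 on the log2 scale (95% interval 0.07 to 0.52, unadjusted p = 0.0127, adjusted p = 0.936). It was 0.23 without the 3 libraries (unadjusted p = 0.0479), and 0.19 when the inflammation score described below was also a covariate (unadjusted p = 0.0965). *Rgs1*, a regulator of chemokine responses in B and T cells, had medians of 11.6 CPM in wild type (4.13 to 22.8 CPM) and 12.1 CPM in knockout (5.99 to 40.3 CPM), a difference of 0.19 (95% interval -0.22 to 0.59, adjusted p = 0.959). *Rgs16*, an RGS protein of Gi and Gq that activated lymphocytes induce, had medians of 5.84 CPM in wild type (3.16 to 7.94 CPM) and 6.92 CPM in knockout (3.43 to 10.9 CPM), a difference of 0.25 (95% interval -0.03 to 0.53, unadjusted p = 0.0827, adjusted p = 0.936).

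**Figure D2:**
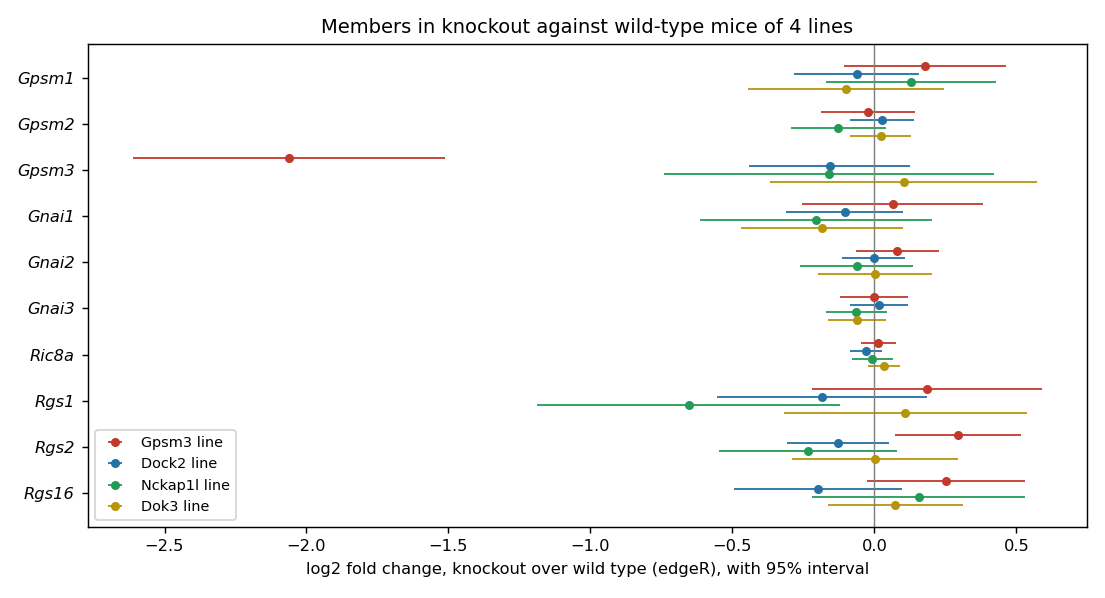
Knockout minus wild type of each of the 10 members in each of the 4 lines, as log2 fold change with its 95% interval from edgeR. Only the interval of *Gpsm3* in its own line, around -2.06, lies far from 0, and *Ric8a* has the narrowest interval in each line.

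*Rgs16* is given by sample-number block of the *Gpsm3* line, since it had the smallest p of the members for a block difference. In block 1 the 10 wild-type libraries ran from 3.7 to 7.06 CPM (median 5.42 CPM) and the 10 knockout libraries from 5.43 to 10.5 CPM (median 8.14 CPM). In block 2 the wild-type libraries ran from 3.16 to 7.94 CPM (median 6.62 CPM) and the knockout libraries from 3.43 to 10.9 CPM (median 4.54 CPM). Thus the knockout level was 0.61 higher on the log2 scale in block 1 and 0.15 lower in block 2. The difference between those effects was -0.76 (SE 0.26, unadjusted p = 0.00587, adjusted p = 0.36). None of the 10 members was called for such a block difference, against 0.342% of genes, and *Rgs16* was the only one at an unadjusted p of 0.05, against 7.44% of genes. That share of members lies near that of all genes. The difference in *Gpsm3* was -1.95 in block 1 and -2.16 in block 2 (unadjusted p = 1.321e-05 and 6.975e-05), although neither block of 20 libraries alone called it after adjustment (adjusted p = 0.229 and 0.451). *Rgs2* was higher by 0.19 in block 1 and by 0.38 in block 2, while *Gpsm1*, *Gpsm2*, *Gnai3* and *Ric8a* had differences of opposite sign in the blocks.

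The rest of the pathway was read from lists of genes around these members, and none of their genes passed the adjusted threshold in the *Gpsm3* line. All further p-values in this paragraph are unadjusted, to be read against the 4.86% of all genes below 0.05. Of 22 other G-protein subunits tested 2 were below 0.05, both higher in knockout: *Gngt2* (0.32 on the log2 scale, p = 0.0153) and *Gng2* (0.25, p = 0.025), which encode γ subunits. Of 15 other RGS genes 1 was below 0.05, the pericyte gene *Rgs5* (0.27, p = 0.0323), and *Rgs7* followed (0.24, p = 0.086). Of 6 other proteins that bind α subunits none was, with *Ccdc88a*, which encodes girdin, at 0.17 (p = 0.0699) and *Pcp2*, another GoLoco gene, at 0.22 (p = 0.14). None of 9 spindle orientation partners of Gpsm2 was below 0.05, and the smallest p-values belonged to *Prkci*, a polarity kinase (-0.06, p = 0.106), and the dynein heavy chain *Dync1h1* (-0.03, p = 0.358). The median of each of these lists lay between -0.03 and 0.06, against 0.0032 for all genes tested.

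None of 21 tested receptors that act through inhibitory α subunits in leukocytes was called after adjustment. At an unadjusted p of 0.05, which 4.86% of all genes passed, 4 of them did, each with a higher level in knockout, among them *Ccr7* (0.76 on the log2 scale, p = 0.0254) and *Cxcr4* (0.58, p = 0.0263), both chemokine receptors. Their median difference was 0.39 on the log2 scale, against 0.0032 over all genes, and all 21 were above 0. Of 6 general leukocyte genes 3 were below 0.05, and their median was 0.50. Their mean level ranged from 4.57 to 6.0 log2 CPM over the wild-type libraries and from 3.60 to 7.32 log2 CPM over the knockout libraries. With the inflammation score as a covariate the receptor median was 0.09 and none of the 21 was below 0.05, and the leukocyte median was 0.11. In bulk tissue fewer cells of a type and less RNA per cell cannot be told apart, and the part of leukocyte number in these values was not tested. Of 17 adenylyl cyclase and cyclic AMP genes 1 was below 0.05, the phosphodiesterase *Pde4b* (0.43, p = 0.0413), followed by the cyclase *Adcy4* (0.34, p = 0.0584). Of 10 genes of the NLRP3 inflammasome, which Gpsm3 is known to restrain, none was, with *Gsdmd* at 0.19 (p = 0.0725) and *Il1b* at 1.27 (p = 0.111). Of the 6 acute inflammation genes tested 1 was, *Tnf* (0.86, p = 0.0378), and *Cxcl5* was at 0.95 (p = 0.139).

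The genes around *Gpsm3* were examined because a knockout can carry its flanking chromosome along. Within 200 kb there were 31 genes, 19 of them tested and none called. At an unadjusted p of 0.05 there were 2. *Pbx2*, which overlaps *Gpsm3* by 489 bases, had a median of 33.1 CPM in knockout libraries against 38.1 CPM in wild-type ones (-0.21 on the log2 scale, p = 0.000804). The butyrophilin-like pseudogene *Btnl7-ps*, 56.9 kb upstream, had medians of 0.764 CPM and 1.16 CPM in the same order (-1.16, p = 0.00187). Their adjusted p was 0.936 for both, and the part of the overlap in the *Pbx2* difference was not tested.

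None of the 10 members was called by edgeR in the other knockout lines, nor by DESeq2 or limma-voom. All genes called were 0.034% in the *Dock2* line, 0.0% in the *Nckap1l* line and 0.0% in the *Dok3* line. At an unadjusted p of 0.05, 1 member was found over the 3 lines, *Rgs1* in the *Nckap1l* line, against 5.1%, 4.5% and 2.19% of all genes. *Rgs1* ran from 7.85 to 79.9 CPM in the 15 *Nckap1l* wild-type libraries (median 15.2 CPM) and from 5.3 to 19.1 CPM in the 16 knockout libraries (median 10.6 CPM). It was lower in knockout by 0.65 on the log2 scale (95% interval -1.19 to -0.12, unadjusted p = 0.0229, adjusted p = 0.9996). The library at 79.9 CPM is wild type replicate 8, and without it the difference was -0.43 (unadjusted p = 0.0415). Skin transcripts had a median of 6.8 log2 CPM in the wild-type libraries of that line and 0.566 log2 CPM in the knockout libraries, and with the skin list as a covariate the difference was -0.62 (unadjusted p = 0.0334). With the sample-number block as a covariate it was -0.55 (unadjusted p = 0.0518). All 5 B-cell markers were lower in the *Nckap1l* knockout at an unadjusted p of 0.05, with a median of -2.58, and the part of B cells in the *Rgs1* level was not tested. *Gpsm3* itself differed by -0.16 in the *Dock2* line (95% interval -0.44 to 0.13), by -0.16 in the *Nckap1l* line (95% interval -0.74 to 0.42) and by 0.10 in the *Dok3* line (95% interval -0.37 to 0.57).

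The members spanned a wide range of levels. Over the 80 wild-type mice, per kilobase of exon, *Gnai2* had a median of 95.9 CPM per kb, *Gnai3* 58.8, *Ric8a* 17.8, *Gpsm2* 16.1, *Gnai1* 8.70, *Rgs2* 7.61, *Rgs1* 2.86, *Gpsm1* 2.82, *Rgs16* 2.64 and *Gpsm3* 2.61. *Gnai2* was above *Gnai3*, and *Gnai3* above *Ric8a*, in 80 of 80 mice. *Rgs2* was above *Rgs1* in 79 mice, *Gnai1* above *Rgs2* in 61, and *Ric8a* above *Gpsm2* in 58. The last 4 genes did not separate, since *Rgs1* was above *Gpsm1* in 40 mice, *Gpsm1* above *Rgs16* in 47 and *Rgs16* above *Gpsm3* in 37. The spread differed as much as the level. *Ric8a* ran only from 15.3 to 19.9 CPM per kb and *Gnai3* from 45.4 to 88.3, whereas *Gpsm3* ran from 0.541 to 13.2, its lowest value being the library labelled wild type replicate 11, and *Rgs1* from 1.08 to 20.8.

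**Figure D3:**
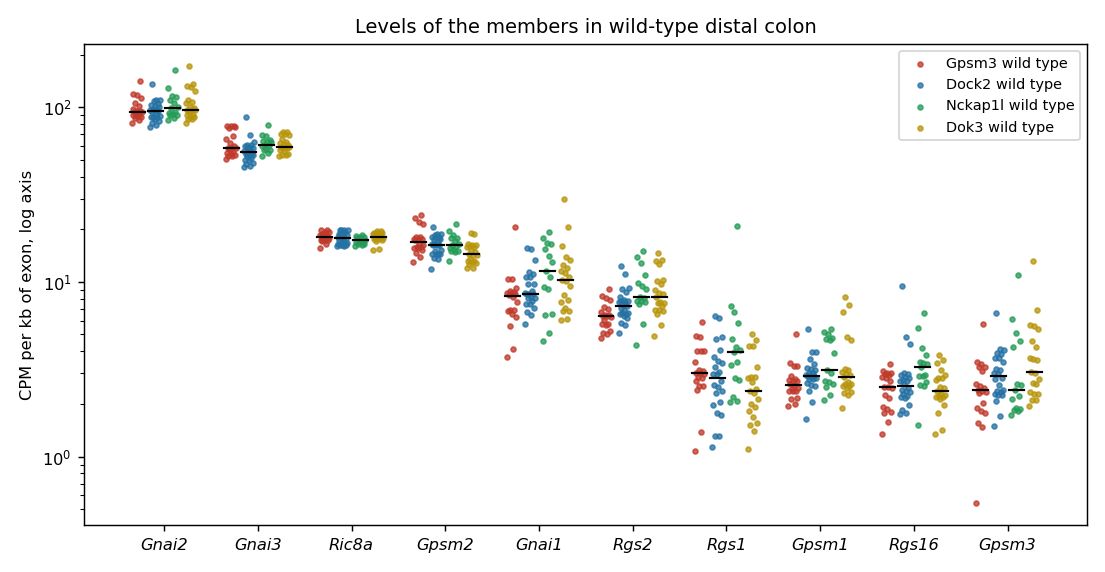
Level of each member in CPM per kb of exon (log axis) in the 80 wild-type mice, with points colored by line and bars at the medians. *Gnai2* and *Gnai3* stand above the other members in each mouse, and the points of *Rgs1*, *Gpsm1*, *Rgs16* and *Gpsm3* overlap.

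Since the labels do not give treatment, the members were followed along a score of inflammation, the mean log2 CPM of 13 acute inflammation genes such as *S100a8*, *Lcn2* and *Il6*, none of which is a member. A slope is the change in log2 level of a gene per unit of the score, over the 80 wild-type mice with line and sex in the model. After adjustment 8 of the 10 members had a slope, 7 rising and 1 falling, while 62.4% of all genes did, 32.2% rising and 30.2% falling. At an unadjusted p of 0.05 it was the same 8 members and 65.8% of genes. The share of members with a slope lies near that of all genes. The share of members that rose is above that of genes that rose, but members were chosen with earlier results of these data known. Neither share is read as a result about the members, and the sizes of the slopes carry the description. Within single lines many genes of any kind were called too, as counted in the last section, so a call there is not particular to a member.

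*Gpsm3* had the steepest slope of the members, 0.239 per unit (SE 0.0201, adjusted p = 1.339e-17). It ran from 0.727 to 7.67 CPM in *Gpsm3* wild type (median 3.21 CPM), from 2.01 to 8.93 CPM in *Dock2* (median 3.87 CPM), from 2.31 to 14.8 CPM in *Nckap1l* (median 3.25 CPM) and from 2.62 to 17.7 CPM in *Dok3* (median 4.08 CPM). The highest libraries of the series, *Dok3* knockout replicate 17 at 29.6 CPM, *Dok3* wild type replicate 18 at 17.7 CPM and *Nckap1l* wild type replicate 10 at 14.8 CPM, held places 1, 2 and 3 of the score over all 160 mice. Within each line alone the slope was 0.195 in *Gpsm3*, 0.184 in *Dock2*, 0.315 in *Nckap1l* and 0.248 in *Dok3*, each past the adjusted threshold. The *Gpsm3* line fit holds wild type replicate 11, which goes against its label, at 0.727 CPM and a score of -1.525. That line was not fitted alone without it. Over all 4 lines without the 2 highest scores the slope was 0.207. *Gpsm2* rose by 0.0377 per unit (SE 0.00927, adjusted p = 0.000301), past the threshold within the *Gpsm3* line alone (0.0808) and not within the others. *Gpsm1* had a slope of 0.0041 (SE 0.0257, adjusted p = 0.901), and 0.0418 over all 160 mice (adjusted p = 0.0206).

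The α subunits parted in direction. *Gnai2* rose by 0.0937 per unit (SE 0.00554, adjusted p = 1.378e-25), with 0.085 to 0.102 in the 4 lines alone, and its 3 highest libraries, at 611, 397 and 375 CPM, were the same libraries as those of *Gpsm3*. *Gnai3* rose by 0.0608 (SE 0.00609, adjusted p = 2.546e-14), with 0.0444 to 0.0932 in the lines alone, all past the threshold. *Gnai1* fell by 0.0683 per unit (SE 0.0286, adjusted p = 0.033). No line called it alone, its slope in the *Gpsm3* line was 0.0039, and without the library of the highest *Rgs1* level, *Nckap1l* wild type replicate 8, it was -0.059 and no longer called (adjusted p = 0.0673). *Ric8a* had a slope of 0.0051 (95% interval -0.0049 to 0.015, adjusted p = 0.393), the flattest of the members beside *Gpsm1* and with a much narrower interval.

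The RGS genes rose over the 4 lines together. *Rgs1* rose by 0.133 per unit (SE 0.0306, adjusted p = 0.000112), called within the *Nckap1l* line alone (0.321), and by 0.103 without the library at 79.9 CPM (adjusted p = 0.00133). *Rgs2* rose by 0.0876 (SE 0.0167, adjusted p = 4.635e-06), called within the *Nckap1l* (0.144) and *Dok3* (0.136) lines alone, and *Rgs16* rose by 0.0881 (SE 0.022, adjusted p = 0.000373), called within the *Dock2* (0.207) and *Nckap1l* (0.142) lines alone. In the wild-type mice of the *Gpsm3* line the slopes of *Rgs1*, *Rgs2* and *Rgs16* were 0.0151, 0.0128 and -0.023. Whether the slopes differ between lines was not tested.

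**Figure D4:**
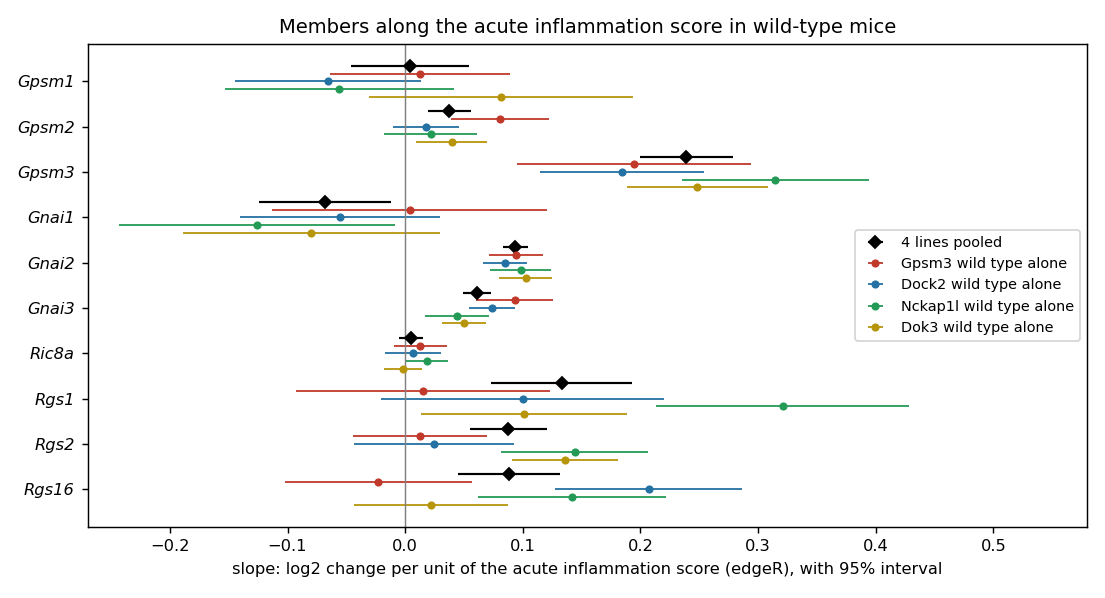
Slope of each member on the inflammation score over the wild-type mice, in log2 CPM per unit of the score, with 95% intervals as black diamonds for all 80 mice and colored points for each line alone. *Gpsm3* has the highest pooled slope at 0.239, *Gnai1* the only negative one called at -0.0683, and *Ric8a* stays close to 0.

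The slope of *Gpsm3* on the score was also compared between genotypes of its own line. This is the deleted gene, and 18 knockout libraries held only 4 to 16 counts, so the comparison cannot tell how the gene responds there. The 2 knockout libraries at wild-type levels had scores of -1.155 and 0.388. In knockout minus wild type the slope was -0.343 (SE 0.121, unadjusted p = 0.00719), and -0.225 without the 3 libraries against their label (unadjusted p = 0.00203). The adjusted p was 0.9999, and no gene was called for a slope difference (0.0%, with 3.42% of genes at an unadjusted p of 0.05). *Gpsm3* was the only one of the 10 members at an unadjusted p of 0.05, and this test was added after the data had been seen. Of the α subunits, the slope of *Gnai2* differed by 0.0117 (95% interval -0.0229 to 0.0462) and that of *Gnai3* by -0.04 (95% interval -0.0807 to 0.00078).

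**Figure D5:**
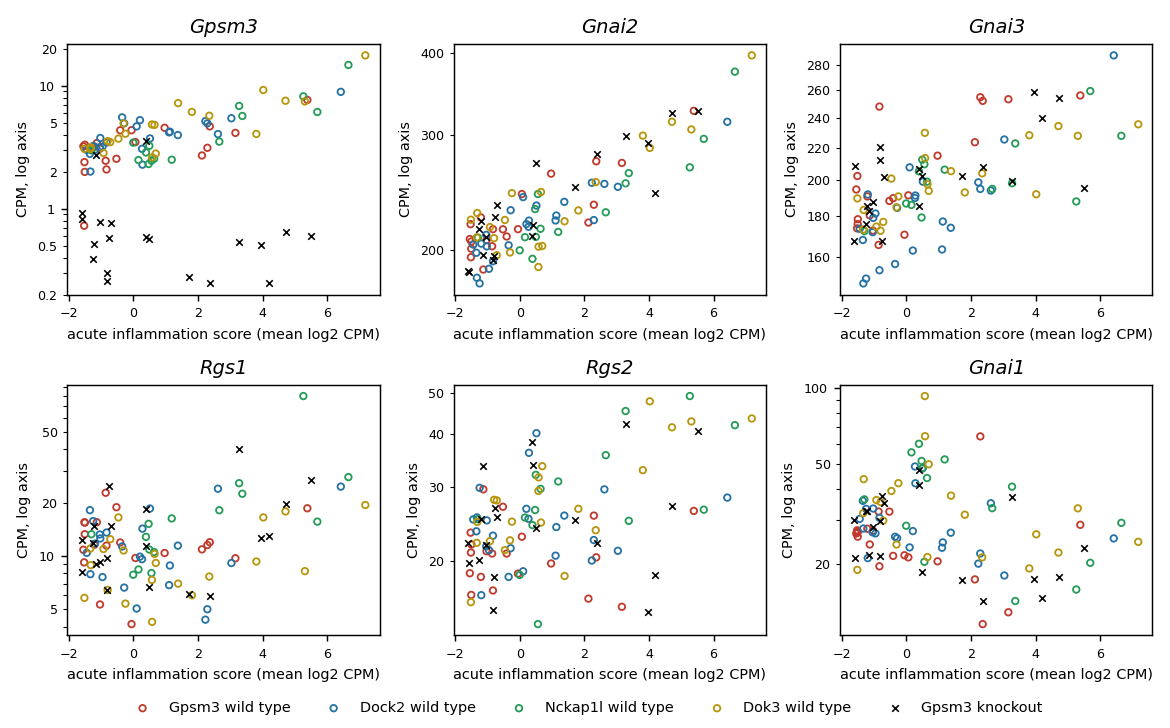
Level in CPM (log axes) of *Gpsm3*, *Gnai2*, *Gnai3*, *Rgs1*, *Rgs2* and *Gnai1* against the inflammation score, with open circles for wild-type mice colored by line and black crosses for *Gpsm3* knockout mice. *Gpsm3* and *Gnai2* climb with the score in wild type, the *Gpsm3* crosses stay low apart from 2 libraries, and the *Gnai2* crosses lie among the circles.

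The members were also compared between lines and between sexes. Over the wild-type males of the 4 lines 2 of the 10 members were called, *Gpsm2* and *Rgs2*, against 18.5% of genes, and 3 at an unadjusted p of 0.05, with *Gpsm3* as the third (p = 0.0211), against 34.4%. Both shares lie near those of all genes. *Gpsm2* was lowest in *Dok3* males, at 42.0 to 66.8 CPM (median 50.4 CPM), against medians of 59.3 CPM in *Gpsm3*, 62.9 CPM in *Dock2* and 52.7 CPM in *Nckap1l* males (adjusted p = 0.0104). *Rgs2* was highest there, at 16 to 47.8 CPM (median 26.6 CPM), against 20.9 CPM in *Gpsm3*, 22 CPM in *Dock2* and 26.4 CPM in *Nckap1l* males (adjusted p = 0.0226). The ranges overlapped, and strain, DSS dose, day of collection and line cannot be told apart. The *Dok3* mice were taken as male by label, although in 5 libraries of that line, over both genotypes, *Xist* was above *Ddx3y*. Neither was called among the C57BL6/J lines (adjusted p = 0.704 and 0.308), and *Rgs2* had an adjusted p of 0.0741 with the score as a covariate.

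In the *Dock2* line males exceeded females in 2 of the 10 members, against 9.75% of genes called in either direction, and in 3 at an unadjusted p of 0.05, against 25.6%. At the unadjusted p the share of members lies near that of all genes. *Gnai3* had 171 to 288 CPM in the 22 males (median 193 CPM) and 148 to 227 CPM in the 20 females (median 170 CPM), a difference of 0.22 on the log2 scale (SE 0.052, adjusted p = 0.00664). *Gpsm2* had 47.3 to 79.0 CPM in males (median 62.4 CPM) and 41.6 to 74.0 CPM in females (median 50.9 CPM), also 0.22 (SE 0.0568, adjusted p = 0.011). *Ric8a* differed by 0.08 and missed the threshold (adjusted p = 0.0683). Other lists moved with sex in this line. The acute inflammation genes had a median difference of 1.69, with 1 of 10 tested called and 6 below an unadjusted p of 0.05, all higher in males, and their mean ran from -1.46 to 6.42 log2 CPM in males and from -1.45 to 3.48 log2 CPM in females. Colon epithelium genes were called higher in males in 4 of 9 cases, with means of 9.44 to 10.3 log2 CPM in males and 9.12 to 9.98 log2 CPM in females. Enteric neuron genes were called lower in 4 of 6, with means of 2.38 to 3.38 log2 CPM in males and 2.63 to 3.83 log2 CPM in females. With the inflammation score as a covariate *Gnai3* differed by 0.14 (adjusted p = 0.00217) and *Gpsm2* by 0.20 (adjusted p = 0.0217), and both were still called. The part of the epithelial and neuronal lists in these differences was not tested. In the *Nckap1l* line no member was called for sex, against 0.178% of genes. At an unadjusted p of 0.05 *Gpsm1* (-0.40, p = 0.0144) and *Rgs2* (-0.36, p = 0.0337) were lower in males, against 15.7% of genes. With the skin list as a covariate these differences were -0.16 and -0.24. There *Gnai3* differed by 0.05 (95% interval -0.06 to 0.16) and *Gpsm2* by 0.08 (95% interval -0.09 to 0.25), and whether the lines differ in these sex effects was not tested.

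Finally, each member was compared with 15988 genes for likeness, the Spearman correlation of log2 CPM within the wild-type mice of a line averaged over the 4 lines, each of 15 to 24 mice. Values are descriptions, since genes of a library share its depth and tissue makeup. *Gpsm3* was most like *Fermt3* (0.877, line values 0.803 to 0.914), *Akna* (0.874) and *Pik3cd* (0.872), which encode the blood-cell integrin activator kindlin-3, a lymphocyte factor and the leukocyte PI3K catalytic subunit, and the same 3 genes led when all mice were used. Its likeness to the mean of the leukocyte list was 0.825, to the list of Gi-coupled receptors 0.822, to macrophage genes 0.765 and to *Gnai2* 0.585. *Gnai2* was most like *Ssbp4* (0.871), *Capzb* (0.868), a capping protein of actin, and *Cd300ld* (0.835), a myeloid receptor. Its likeness was 0.793 to acute inflammation genes, 0.781 to NLRP3 inflammasome genes, 0.764 to macrophage genes, 0.755 to neutrophil genes and 0.596 to leukocyte genes. *Gnai3* was most like *G6pdx* (0.845), *Plaa* (0.834) and *Psme4* (0.83), genes of NADPH supply and protein turnover.

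*Gnai1* was most like the dystrophin gene *Dmd* (0.804), *Nmrk2* (0.802) and the gelsolin gene *Gsn* (0.802), with 0.663 to smooth-muscle genes and -0.573 to leukocyte genes. Its likeness was also 0.382 to striated-muscle genes and 0.462 to skin genes. *Gpsm1* was most like *Pcnx* (0.807), *Ak1* (0.795) and *Pard6g* (0.793), a polarity gene, and its likeness to colon epithelial genes was -0.678. To striated-muscle genes it was 0.445 and to skin genes 0.486. The part of the libraries with skin transcripts in these values was not tested. *Gpsm2* was most like *Gstp3* (0.6184), *Lpcat3* (0.6176) and *Dbi* (0.612), and its likeness to cell-division genes was 0.493. *Rgs2* was most like *Antxr1* (0.772), *Ntng2* (0.743) and *Lix1l* (0.738), with 0.672 to endothelial genes. *Rgs1*, *Rgs16* and *Ric8a* had weaker partners, led by *Itgb3* (0.615), *Cd83* (0.54) and *Trim26* (0.598). Of all 30 genes so named, 13 were named again with all 160 mice. Those were 3 of 3 for *Gpsm3* but 0 of 3 for each of *Gpsm1*, *Ric8a* and *Rgs2*.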

How the data were processed

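RNA from 160 distal colons, depleted of ribosomal RNA, was sequenced with a stranded kit. The authors aligned the reads by STAR to mm10 and assigned them to genes by featureCounts of Subread, per the labels and the study's methods, and deposited raw counts of 39179 Ensembl genes per sample. Tool versions and the strand setting are not given in the sources used here. GENCODE names of GRCm38 covered 37607 genes and 99.67% of counts.

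TMM scaling and the filterByExpr filter were applied to each comparison's libraries, and genes were tested by edgeR 4.0.16 (glmQLFit and glmQLFTest) in R 4.3.3, with Benjamini-Hochberg adjustment over all genes tested and a threshold of 0.05. The study used limma-voom with genotype, DSS treatment and their interaction. Here limma-voom was run as an alternative without a treatment term, since the labels do not give treatment, so it does not repeat the study's test. Sex was a covariate in the *Dock2* and *Nckap1l* lines, and line and sex in the slope on the score. The score and the list means are means of log2 CPM with a prior count of 2. Groups came from the labels' line and genotype. Each library is a separate mouse by its label. The study's methods tell of mixed-genotype litters housed together, but the labels give no litter or cage, so neither was in the models. The p-values describe the spread between mice, with treated and untreated mice together. The edgeR test of each comparison was checked on simulated data.

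Alternatives were DESeq2 1.42.0, limma-voom (limma 3.58.1), no filter beyond 1 count in all, the sample-number block, sex or score as a covariate or left out, 2 surrogate variables (sva 3.50.0), the C57BL6/J lines alone, each line alone and all 160 mice. Added after seeing the data were leaving out doubted libraries, each block alone, the skin list as a covariate and the difference in slope between genotypes. The named genes are all members, the 2 genes with the smallest p of each pathway list in the *Gpsm3* line, the genes within 200 kb of *Gpsm3* and the 3 genes most like each member, with a mean of at least 1 CPM in every line. Members and lists were chosen with earlier results of these data known. Summaries used Python 3.11.15 with pandas 2.3.3 and scipy 1.17.1. The 3-count floor and all counts cover counting error only.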

Additional observations from a re-analysis of the deposited data

Results flagged for a closer look

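Each member was searched for a sample far from the others in subgroups of 4 to 10 mice of 1 line, genotype, sex and sample-number block. Of 120 searches 19 flagged a sample. Chance flags about 1 in 20 of independent searches, but the members of a library are not independent, so no excess is read from this count. Values are CPM, followed by the nearest other sample.

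*Gpsm3* was flagged in both blocks of its own knockout, at 2.74 against 0.93 in replicate 1 and at 3.54 against 0.784 in replicate 11, the knockout libraries described above as going against their label. It was also flagged in *Dok3* wild type replicate 18 at 17.7 against 7.56, the mouse at place 2 of the score. In *Gpsm3* wild type, replicate 14 was high in *Gpsm2* (85.0 against 63.0) and *Gnai2* (327 against 262). Replicate 10, a library with skin transcripts, was high in *Gpsm1* (19.1 against 10.6) and *Gnai1* (64.5 against 32.4). In *Gpsm3* knockout, *Gnai3* was high in replicate 18 (254.0 against 208) and *Rgs16* in replicate 13 (10.9 against 7.34).

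In the *Dock2* line a female knockout, replicate 13, was high in *Gpsm1* (22.4 against 13.8), *Gnai3* (227 against 187) and *Rgs2* (39.8 against 24.1). In the *Dok3* knockout, *Gpsm1* was high in replicate 23 (20.2 against 13.4) and *Rgs16* in replicate 24 (12.0 against 7.9), and *Gpsm2* was low in replicate 22 (37.7 against 49.9). *Ric8a* was low in *Dok3* wild type replicate 19 (52.7 against 59.1). In the *Nckap1l* line *Rgs1* was high in wild-type female replicate 8 (79.9 against 25.8), which was also high in *Ric8a* (63.5 against 58.0), and *Gpsm1* was low in knockout replicate 13 (10.2 against 11.9).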

How the results depend on the processing

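The fall of *Gpsm3* in its knockout was called under every alternative run over both blocks. With block 1 alone and block 2 alone 0 members and 0 genes of any kind were called, with fewer mice in each fit. The members called were the same in number under DESeq2 and limma-voom in each knockout comparison. Among differences that were not called, *Gnai3* changed sign with limma-voom (0.0060), with the block as a covariate (0.0020) and in block 2 alone (0.0786). *Gpsm1* changed sign in block 1 alone (-0.0607), and *Gpsm2* (0.0828), *Ric8a* (-0.0125) and *Rgs16* (-0.15) in block 2 alone. The cause was not tested.

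Counts over all genes moved more. In the *Gpsm3* line 1 gene was called, but 4 with DESeq2, 32 without the filter, 2 without the 3 libraries against their label and 3 with the score added to that. In the *Dock2* line 6 were called, but 69 with DESeq2, 0 with limma-voom, 31 without the filter and 94 with surrogate variables. In the *Nckap1l* line 0 were called, but 21 with DESeq2, 27 without the filter, 1 with the score and 93 with surrogate variables. In the *Dok3* line 0 were called, but 3 with DESeq2 and 15 without the filter. The block difference called 60 genes, but 0 with limma-voom, 455 without the filter and 19 without the 3 libraries. Sex in the *Nckap1l* line called 32, but 192 with DESeq2, 55 without the filter, 117 with the score and 133 with the skin list. The cause was not tested.

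Over the wild-type males the C57BL6/J lines alone called 0 members and 86 genes, where all 4 lines together had called 3619. With the score as a covariate 1 member was left. The slope on the score called 8 members in all, beside 11899 genes, 62.4% of those tested. In each of the *Gpsm3*, *Dock2* and *Dok3* lines alone it called 4 members, beside 7034, 7238 and 6288 genes. In the *Nckap1l* line it called 6 members, beside 5247 genes, and each of these fits had fewer mice. The number of genes tested in these single-line fits is not given here, so the member counts are not read against a share. In the *Gpsm3* line alone *Gnai1* (0.0039) and *Rgs16* (-0.023) changed sign. Of 30 genes most like a member, 13 were named with all mice. No paired analysis was possible because the labels give no replicate numbers, and those used here follow accession order. At 4 to 62 counts per knockout library, the depth limits what can be said of the remaining *Gpsm3* level.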
